A study of Bos taurus with 3 samples.

Results

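The miR-34 and miR-449 family was followed in small RNA of purified large dense-core vesicles. They came from bovine chromaffin cells, which make and release catecholamines in the adrenal medulla. Members were chosen by name from the table of raw counts: miR-34a, miR-34b, miR-34c and every miRNA whose name starts with miR-449. The rule found 7 of the 793 mature miRNAs (miR-34a, miR-34b, miR-34c, miR-449a, miR-449b, miR-449c and miR-449d), each with a single hairpin row. The series holds 3 libraries of vesicle RNA from adrenal medulla of cows taken at a local slaughter, 2 labelled technical replicates (technical libraries 1 and 2) and 1 labelled biological replicate (the biological library), with no treatment, genotype, age or animal number given. All 3 are vesicle fractions, and none of whole cells or of other fractions was used here, so the values show neither enrichment over the cell nor a place inside the vesicle. The technical pair was averaged and counted as 1 preparation, which gives n = 2 preparations.

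miR-34 and miR-449 are known as a single functional family because their mature strands share a seed, the stretch near the 5′ end that pairs with target mRNAs. The seeds of the members chosen by name, miR-449d among them, were not read here. Members of the family are known to restrain cell cycle and survival genes. miR-449a, miR-449b and miR-449c, together with miR-34b and miR-34c, are known from multiciliated epithelium of airway, oviduct and brain ventricles, where they are needed for the formation of motile cilia.

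In the RefSeq gene table of the assembly ARS-UCD2.0, all 7 hairpins were matched by name. That assembly differs from the build named for the files, UMD3.1, so only the order of genes was used. MIR34B and MIR34C were each other's nearest miRNA gene and lay within the spans of BTG4, an antiproliferative gene of the oocyte, and HOATZ, a gene of motile cilia. MIR449A, MIR449B and MIR449C lay together within the span of CDC20B, next to CCNO and MCIDAS, both of which are known to drive the multiciliated cell programme. MIR34A lay within the span of GPR157, and MIR449D, apart from the other miR-449 genes, within that of NAV2. The 7 members thus came from 4 places in the genome.

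The family was scarce in the vesicle RNA, and most of its reads were miR-34a. Together the 7 members had 77 counts in technical library 1, 66 in technical library 2 and 57 in the biological library, out of library totals of 5546771, 6251664 and 6708654 counts. As CPM, that is, counts per total of each library brought to the same scale, the family had 13.9 CPM in technical library 1 (exact Clopper-Pearson 95% interval 11.0 to 17.4), 10.6 CPM in technical library 2 (8.16 to 13.4) and 8.50 CPM in the biological library (6.44 to 11.0). The mean was 10.4 ± 2.63 CPM (SD, n = 2). Technical library 1 was highest and the biological library lowest. The intervals of all 3 libraries overlapped, but the ratio of the biological library to the technical pair was 0.701. Its exact counting interval of 0.506 to 0.959 excludes equality on library totals. The TMM scaling of the fit below set the biological library 0.18 log2 units higher and was not applied to this ratio. Whether equality is excluded with that scaling was not tested. At least 10 counts in a library were reached by 2 of the 7 members, against 367 of all 793 miRNAs, and 3 of the 7 had no count in any library, against 267 of 793. The labels name no molecular identifiers, so all intervals and limits cover counting error only. Mature miRNAs are of nearly equal length, and CPM were compared between them without a length term.

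**Figure D1:**
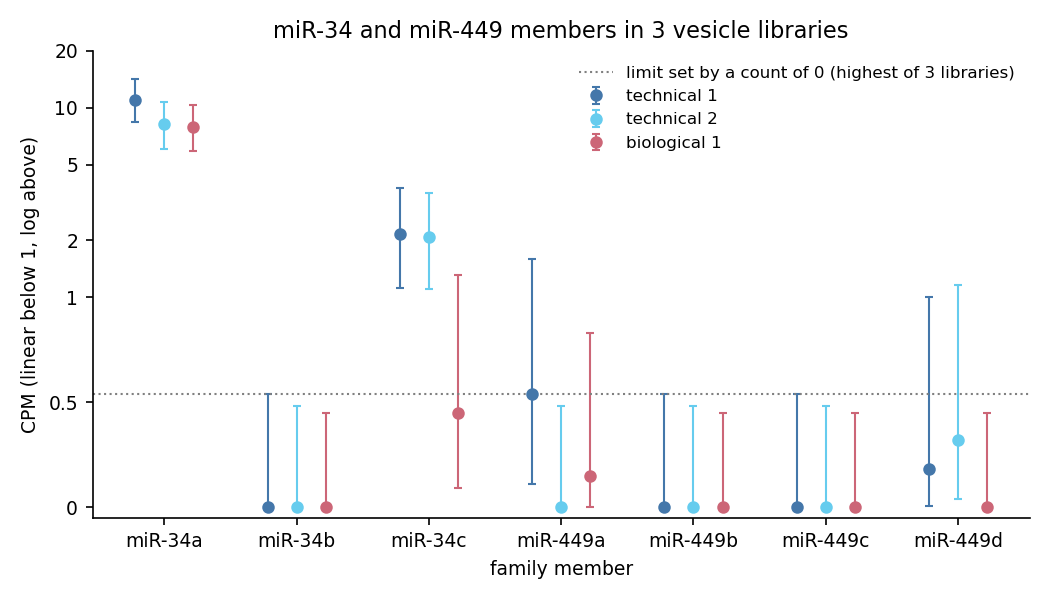
CPM of each family member (x axis) in the 3 libraries, on an axis that is linear below 1 CPM and logarithmic above. Points are the values, bars are exact Poisson 95% intervals (for a count of 0, the bar ends at the limit of 3 counts), and the dotted line is the highest of the limits set by a count of 0 (0.541 CPM). miR-34a stands above 7 CPM in every library, miR-34c lies near 2 CPM in the technical pair and at 0.447 CPM in the biological library, and the other members lie at or under the dotted line.

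miR-34a (MIMAT0004340), the member encoded apart from the others of the miR-34 branch, was the only member with at least 10 counts in every library. It had 61 counts in technical library 1, 51 in technical library 2 and 53 in the biological library, which is 11.0, 8.16 and 7.90 CPM. The biological library thus lay just below technical library 2, closer to it than technical library 1 was, and technical library 1 stood above both. Technical library 1 exceeded technical library 2 by a ratio of 1.35 on library totals, with an exact counting interval of 0.914 to 1.995 that includes equality. The mean was 8.74 ± 1.19 CPM (SD, n = 2). miR-34a ranked 278th of 793 by mean CPM, between miR-424-3p at 8.76 CPM and miR-221 at 8.73 CPM, neighbours from which it differed by far less than its own spread. The median of the 367 tested miRNAs was 74.8 CPM. miR-375, the leading miRNA of these vesicles, stood about 45000 times higher than miR-34a.

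miR-34c (MIMAT0003854), which is processed with miR-34b from a shared primary transcript, followed at a lower level. Its counts were 12 in technical library 1, 13 in technical library 2 and 3 in the biological library, or 2.16, 2.08 and 0.447 CPM. The technical libraries had nearly equal values. Their ratio on library totals was 1.04, with a wide exact counting interval of 0.434 to 2.47. The biological library was lower than both, at the level that a count of 0 would still allow there (3 counts, 0.447 CPM). The mean of 1.28 ± 1.18 CPM (SD, n = 2) placed it 363rd of 793, next to miR-2313-5p at 1.31 CPM and miR-2408 at 1.28 CPM. Its cluster partner miR-34b (MIMAT0003549) had a count of 0 in all 3 libraries. The upper limit behind such a 0 is 3 counts (95%, one-sided), which for miR-34b is 0.541 CPM in technical library 1, 0.480 CPM in technical library 2 and 0.447 CPM in the biological library. The miR-34c values of the technical pair lay above these limits, and that of the biological library did not.

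The miR-449 members, of which miR-449a, miR-449b and miR-449c are known best from multiciliated cells, were at the edge of detection. miR-449a (MIMAT0009320) had 3 counts in technical library 1, 0 in technical library 2 and 1 in the biological library. miR-449d (MIMAT0011962), the member encoded away from the CDC20B cluster, had 1, 2 and 0 counts in the same order. miR-449b (MIMAT0009321) and miR-449c (MIMAT0009322) had no count in any library, with the same upper limits as miR-34b. No miR-449 value exceeded 3 counts, so neither an order among these 4 members nor a difference between libraries was detectable at this depth. They did not pass the filter on low counts and were not tested.

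**Figure D2:**
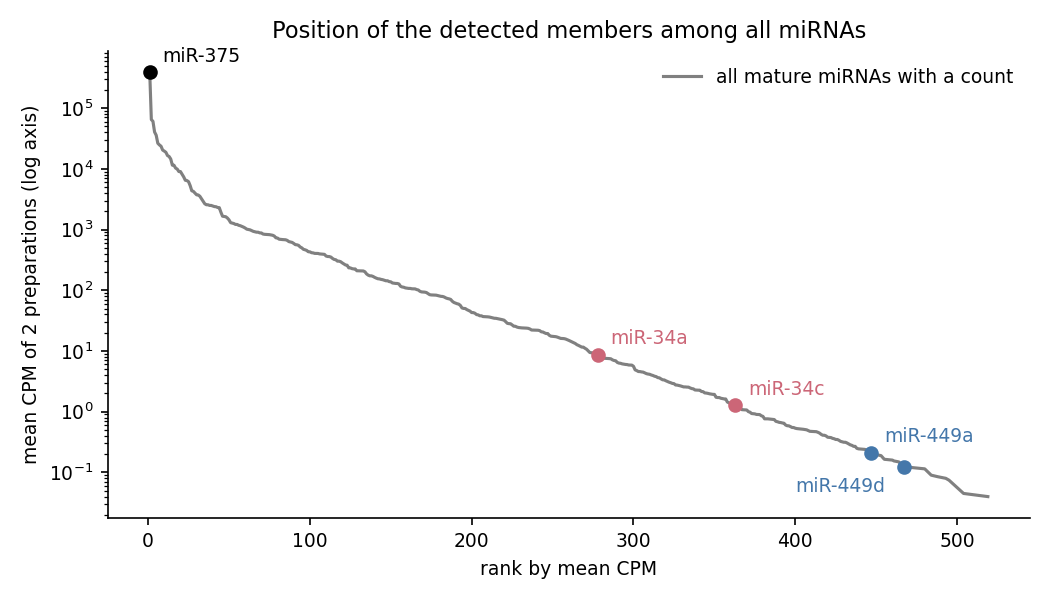
Mean CPM over the 2 preparations (logarithmic y axis) against rank for every mature miRNA with a count. miR-34a and miR-34c, at ranks 278 and 363, lie in the lower part of the curve, miR-449a and miR-449d near its end, and miR-375 at its top.

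The make-up of the family was given by miR-34a in each library. miR-34a held 79.2% of the family's counts in technical library 1 (exact Clopper-Pearson 95% interval 68.5 to 87.6%), 77.3% in technical library 2 (65.3 to 86.7%) and 93.0% in the biological library (83.0 to 98.1%). miR-34c held 15.6% (8.32 to 25.6%), 19.7% (10.9 to 31.3%) and 5.26% (1.10 to 14.6%) in the same order. miR-34a was thus the leading member in all 3 libraries, and the intervals of the biological library overlapped those of both technical libraries for both miRNAs. Overlap of separate intervals does not show that shares are equal, and a difference in make-up was not tested. Members of this family are known to be alike in sequence, but they were chosen by name and their sequences were not compared here. How reads that fit several members were counted is not given in the sources used here, so the split between them is uncertain to that extent.

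The comparison that the labels allow sets the biological library against the technical pair, a single library of another preparation against 2 libraries of 1 preparation. With 1 residual degree of freedom, edgeR took its spread from the technical libraries alone, so a call means a difference beyond technical spread, and none is tested against the spread between preparations or animals. Of the 2 members that could be tested, miR-34c was lower in the biological library and miR-34a did not pass the test. miR-34c met the filter of at least 10 counts only through the technical libraries, where it was high. The filter thus favoured a lower value in the biological library, and the call is not independent of it. With edgeR's quasi-likelihood test and Benjamini-Hochberg adjustment over all 367 tested miRNAs, miR-34c had a log2 fold change of -2.02 ± 0.56 (SE) and an adjusted p of 0.015. miR-34a had a log2 fold change of -0.08 ± 0.27 (SE) and an adjusted p of 0.84. At a threshold of 0.05, 37.9% of all tested miRNAs were called in either direction, 20.2% lower and 17.7% higher, so 1 call among 2 members is not read as a feature of the family. Library totals in place of TMM scaling changed the split of all calls from 65 higher and 74 lower to 24 higher and 86 lower (6.54% and 23.4% of those tested, 30.0% in all). TMM set the biological library 0.18 log2 units above its place on library totals, a shift contained in each TMM-based fold change given here. Both members kept their side of the threshold, with log2 fold changes of -2.19 (edgeR, adjusted p = 0.029) for miR-34c and -0.27 (adjusted p = 0.50) for miR-34a.

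The call for miR-34c rests on 28 counts in all, of which 3 were in the biological library. On library totals the ratio of the biological library to the technical pair was 0.211, with an exact counting interval of 0.0408 to 0.692. DESeq2 gave miR-34c a log2 fold change of -2.07 ± 1.54 (SE) with an unadjusted p of 0.18 and returned no adjusted p. For miR-34a the ratio was 0.832 (0.589 to 1.16), and for the family sum 0.701 (0.506 to 0.959), both without TMM scaling. With TMM scaling the log2 ratio of miR-34a was -0.32 against technical library 1 and 0.16 against technical library 2, whereas on library totals the biological library lay below both.

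**Figure D3:**
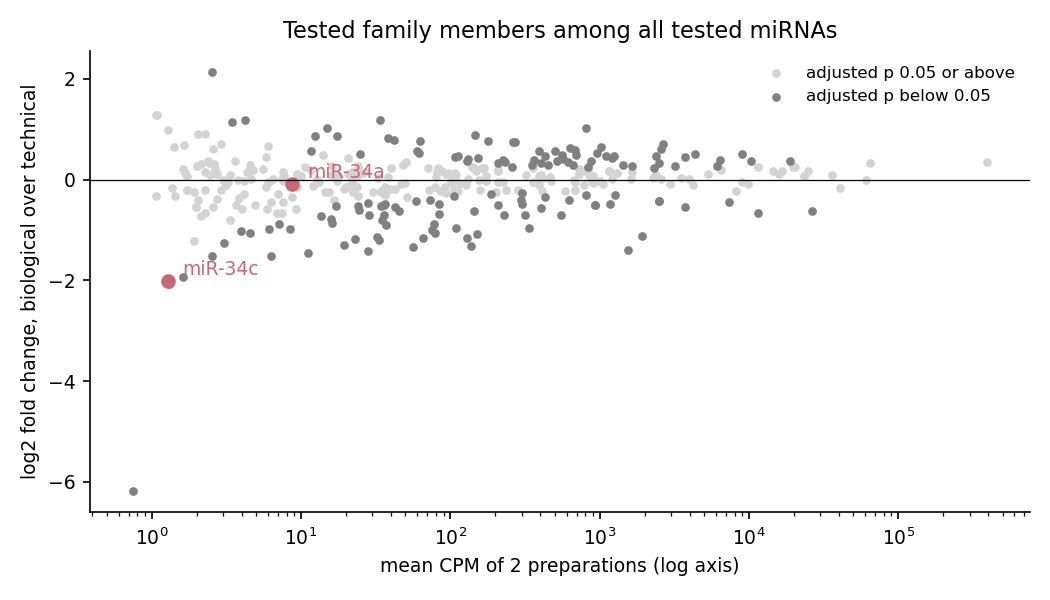
Log2 fold change of the biological library over the technical pair (y axis) against mean CPM (logarithmic x axis) for the 367 tested miRNAs, with dark points for adjusted p below 0.05 in edgeR. miR-34a lies near 0 at 8.74 CPM, and miR-34c lies at -2.02 at the left edge, where few counts stand behind each point.

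Among all 367 tested miRNAs only 2 had a more negative log2 fold change than miR-34c, and both were as scarce. They are the arms of a shared hairpin, named here after their values were seen. miR-2313-3p had 6 and 12 counts in technical libraries 1 and 2 and none in the biological library, and miR-2313-5p had 10, 16 and 3 counts. Like miR-34c, both reached 10 counts in technical libraries only, so the filter shaped this end of the order. In absolute log2 fold change, 3 of the 367 tested miRNAs stood above miR-34c. miR-34a stood at the other end: 62 of the 367 tested miRNAs had a smaller absolute log2 fold change. The median log2 fold change of all tested miRNAs was 0.01. No member reached the mean of 100 CPM set for a search of miRNAs with a similar profile over the libraries, and none is named on that ground.

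The authors' deposited log2 values covered the same 2 members and no other. There miR-34a had 3.07 in technical library 1, 2.63 in technical library 2 and 2.62 in the biological library. miR-34c had 0.80, 0.72 and -1.17 in the same order. As in the counts, the technical libraries lay together for miR-34c and the biological library lay lower, whereas for miR-34a technical library 1 stood above the others. These values come from the same libraries as the counts, so the shared order is not independent evidence.

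Markers of cell types were read beside the family. The RNA came from vesicle fractions, so these markers do not measure the share of each cell type. Fewer cells of a type, less RNA per cell and a different purity of the fraction cannot be told apart. The labelled cell type was matched by the endocrine miRNAs miR-375 and miR-7, which together held between 428375 and 473000 CPM. Of 7 names of epithelial miRNAs, 6 were matched; miR-205 and miR-429 were at 0 in every library and miR-200a had 1, 0 and 3 counts. The matched epithelial miRNAs summed to 28.8 and 24.2 CPM in technical libraries 1 and 2 and 32.2 CPM in the biological library. Most of that sum was miR-200c, at 22.5, 21.3 and 27.6 CPM. It was called higher in the biological library (edgeR, log2 fold change of 0.52, adjusted p of 0.015), but did not pass with library totals (0.33, adjusted p = 0.13) or in DESeq2 (0.51, adjusted p = 0.34). miR-141, at 2.34, 1.60 and 1.49 CPM, was highest in technical library 1 and did not pass. The same held for miR-200b, at 3.79, 1.28 and 2.68 CPM (edgeR, log2 fold change of 0.30, adjusted p of 0.65). Of the miRNAs of smooth muscle and fibroblasts, the edgeR test called 5 of 6 lower in the biological library, against 20.2% of all tested miRNAs. miR-145, at -0.24 on the log2 scale, did not pass, none was at 0, and their sum was 16827 and 18867 CPM in the technical pair and 10249 CPM in the biological library. The endothelial arms miR-126-3p and miR-126-5p were both called lower, with a sum of 1820 and 1888 CPM against 1130 CPM. The part of these cell types in the miR-34c difference was not tested.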

How the data were processed

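Small RNA libraries were prepared from 500 ng of vesicle RNA with a NEBNext kit, per the labels' protocols. The authors deposited raw read counts in 919 rows of mature miRNA and hairpin, and, in the same table, CPM over the column total of all rows. A second deposited table holds log2 CPM for 459 rows. The submitters' processing notes name UMD3.1 and edgeR. For the aligner and the counter, the tool is not given in the sources used here.

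Each mature miRNA was represented by its hairpin row with the most counts, and CPM were recomputed over those totals. A miRNA entered the fit if any library held at least 10 of its counts, and the table was fitted with edgeR 4.0.16 (TMM, quasi-likelihood, R 4.3.3) and DESeq2 1.42.0 as an alternative. SEs were derived from the F statistic; for miR-34c edgeR's p is larger than that SE implies. Ratios carry exact conditional binomial intervals (scipy 1.17.1). The labels do not say that libraries came from separate animals. The p-values set a difference against the spread of the technical pair only, and the single biological library adds no spread. In the main fit edgeR's prior degrees of freedom were infinite, so that spread was shared across the tested miRNAs and was not each miRNA's own.

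Members, lists and tests were chosen with earlier results of these data known. Named were all members, cell type markers, and any miRNA near a member in profile or level if that member had 100 CPM; the level neighbours of miR-34a and miR-34c, both under it, were added after their values were seen. Sequences and a search by shared seed were not analysed here. A further list of miRNAs fixed with them is not reported here.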

Additional observations from a re-analysis of the deposited data

How the results depend on the processing

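The number of miRNAs called between the preparations was 139, and between 110 and 136 with library totals, DESeq2 size factors in edgeR, no count filter or hairpin rows summed. It became 84 with DESeq2 and 70 when the fit was limited to means from 100 CPM upwards, a setting that holds fewer miRNAs and no family member. miR-34c kept its call in the 4 edgeR alternatives that gave it a value, with adjusted p-values from 0.019 to 0.036. It was not called in DESeq2, where the unadjusted p was 0.18 and no adjusted p was returned. Its log2 fold change was -2.07 to -1.97 with a technical library left out, and -1.93 in the authors' log2 values; the cause of these small shifts was not tested. miR-34a passed in none of the 5 tested alternatives, and its log2 fold change ran from -0.32 to 0.16 with a technical library left out. The family's mean of 10.4 CPM became 17.0 CPM with miR-375 taken out of the total, a smaller denominator by construction, 7.85 CPM with hairpin rows summed, and 9.53 to 12.2 CPM with any library left out. A test without a technical library was not possible because no residual degree of freedom is left. No paired analysis was possible because the labels name no pairs between the groups. Depth limits the 4 miR-449 members and miR-34b, which lay at or under 3 counts in each library.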
